A study of Camelus dromedarius with 10 samples.

Results

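CDH13, GLCE, BTBD11, FHOD3, SLC14A1 and SFRP4 are 6 genes that the study calls changed by water deprivation (WD) in the supraoptic nucleus (SON) of the dromedary camel, and which the study lists as changed in the opposite direction in the SON of the dehydrated rat. They were taken by their Ensembl IDs from a table of read counts for 22444 gene IDs, as the symbols are paired with IDs in the supplementary data of the study. The study's list of opposite genes holds 10 genes, and the other 4 (AEN, PCSK2, RET and SYT9) are given only for comparison. Rat libraries were not analysed here, so all values are from the camel. The study's rats went without water for a shorter time than its camels, with a smaller rise in osmolality. The study itself cautions that the protocols differed, and it reports that most genes changed in both species moved the same way. The levels of SFRP4, CDH13, BTBD11 and FHOD3 were lower in WD camels, and those of GLCE and SLC14A1 were higher. Because the genes were chosen for a change in these same libraries, their levels and differences are a description and carry no test.

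The SON is a hypothalamic nucleus of large (magnocellular) neurones that make vasopressin and oxytocin and send their axons to the posterior pituitary. When plasma osmolality rises, vasopressin is released and the kidney retains water, and the neurones, the glia around them and the matrix between them are remodelled. The 6 genes belong to no single pathway. GLCE modifies heparan sulfate chains in the Golgi while they are made, SFRP4 acts outside the cell on Wnt signals, SLC14A1 carries urea, CDH13 sits on the cell surface, and FHOD3 and BTBD11 act inside the cell, FHOD3 on actin filaments.

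RNA came from unilateral punches of the rostral SON of male camels aged 4 to 5 years. The control group (5 camels, libraries CON2, CON3, CON4, CON5 and CON13) had free access to food and water, and the WD group (5 camels, libraries WD6, WD7, WD8, WD9 and WD15) had food but no water for 20 days. Each library is 1 animal, sequenced after depletion of ribosomal RNA with a stranded kit. The punches hold neurones, glia and vessels together, and in such bulk samples fewer cells of a type and less RNA per cell cannot be told apart.

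Total counts ranged from 1665098 to 8126641 per library, and 5 gene IDs alone took 27.7% to 76.1% of them. CON13 and WD6 stood apart, with 397495 and 1106575 counts outside these 5 IDs. Levels are given as CPM, the count divided by the library's TMM-normalized size and scaled up, and on this scale 1 read pair was worth 1.2 CPM in CON13, 0.475 CPM in WD6 and at most 0.237 CPM in the other 8 libraries. At a given level, single values from CON13 and WD6 therefore carry the widest counting error. The fold changes of GLCE, SLC14A1, FHOD3 and SFRP4 are given with and without these libraries. The magnocellular markers OTP and SIM1, transcription factors of these neurones, were detected in every library, at 17.9 to 53.9 CPM and 42.5 to 103 CPM. Vasopressin and oxytocin were not analysed here.

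The study chose these genes at an adjusted p of 0.05 from DESeq2. In a DESeq2 fit of the same counts, SLC14A1 (adjusted p = 0.0498) and SFRP4 (adjusted p = 0.0497) lay just inside that threshold, beside ANXA2 and CTSA (both 0.0498) and LGALS1 (0.05). WARS1 (0.0522) and FADS6 (0.0534) were the nearest named genes outside it. All 6 genes were inside, where 1.27% of the 16447 genes with an adjusted p were, which follows from the choice. In edgeR's quasi-likelihood test, adjusted by Benjamini-Hochberg over 14432 genes, only CDH13 (lower) and GLCE (higher) were inside the threshold of 0.05. Of all genes 0.499% were (0.27% higher and 0.229% lower in WD), and nothing is read from this either. SFRP4 did not enter that test, because its counts were too low for edgeR's filter, so 5 of the 6 genes passed it.

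GLCE (ENSCDRG00005016979) encodes the glucuronyl C5-epimerase, which turns glucuronic into iduronic acid in growing heparan sulfate chains and so makes them flexible enough to bind growth factors. Its level was 19.2, 17.3, 14.6, 16.4 and 28.7 CPM in CON2, CON3, CON4, CON5 and CON13. It was 24.7, 49.9, 36.7, 50.7 and 45.6 CPM in WD6, WD7, WD8, WD9 and WD15. The 4 deeper WD libraries lay above every control library, and the groups overlapped only through CON13, the highest control, and WD6, the lowest WD library. The CON13 value rests on 24 counts, with an exact Poisson 95% interval of 18.4 to 42.7 CPM, and the WD6 value on 52 counts, with an interval of 18.4 to 32.4 CPM (counting error only). Means were 19.2 ± 5.55 CPM (SD, n = 5) in control and 41.5 ± 10.9 CPM (SD, n = 5) in WD camels, a log2 fold change (LFC) of 1.20 with a standard error (SE) of 0.229, or 2.30-fold. Without CON13 and WD6 the LFC was 1.43. The groups then did not overlap, which follows from leaving out the libraries that formed the overlap, and nothing is read from it.

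SLC14A1 (ENSCDRG00005015615) encodes the urea transporter UT-B, a channel of red cells, vascular endothelium and glia that carries the Kidd blood group antigens and lets urea equilibrate across the membrane. Control libraries held 59.3 (CON2), 77.8 (CON3), 68.4 (CON4), 75.0 (CON5) and 33.5 CPM (CON13). WD libraries held 71.2 (WD6), 97.8 (WD7), 151 (WD8), 151 (WD9) and 103 CPM (WD15). CON13 was the lowest control library and WD6 the lowest WD library, and WD6 lay below CON3 and CON5. The CON13 value rests on 28 counts (95% interval 22.2 to 48.4 CPM), below the 52.6 to 66.7 CPM interval of CON2, the next lowest control. The means of 62.8 ± 17.9 CPM (SD, n = 5) and 115 ± 35.1 CPM (SD, n = 5) gave an LFC of 0.84 (SE 0.233), or 1.79-fold. Without CON13 and WD6 the LFC was 0.82, which is close to the value over all 10 libraries. The groups then separated, which follows from leaving out WD6. The share of all genes that separate in those libraries was not taken, so nothing is read from the separation.

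CDH13 (ENSCDRG00005001202) encodes T-cadherin, a cadherin held in the membrane by a glycolipid anchor that also binds adiponectin. Its control levels were 19.6, 31.9, 41.2, 32.2 and 32.3 CPM in the order of libraries used for GLCE. The WD levels were 11.4, 13.9, 17.4, 14.9 and 8.96 CPM. Every WD library lay below every control library, and the lowest control library (CON2) was 1.13 times the highest WD library (WD8). The mean fell from 31.5 ± 7.68 CPM (SD, n = 5) to 13.3 ± 3.23 CPM (SD, n = 5), an LFC of −1.22 (SE 0.231), or 2.34-fold lower. Of the 6 genes, CDH13 was 1 of 2 whose groups did not overlap, the other being FHOD3. Over all 14432 genes 2.62% were without overlap (1.34% higher and 1.27% lower in WD), and with genes chosen on the same contrast nothing is read from the count of 2.

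FHOD3 (ENSCDRG00005004437) encodes a formin, a protein that assembles unbranched actin filaments and is known for its part in the sarcomere of heart muscle. It stood at 78.3 CPM in CON2, 110 in CON3, 140 in CON4, 102 in CON5 and 110 in CON13. In WD camels it stood at 77.4 CPM in WD6, 71.8 in WD7, 54.1 in WD8, 72.6 in WD9 and 45.0 in WD15. The groups did not overlap, but by little, as CON2 was 1.01 times WD6, and the counting intervals of these libraries (70.5 to 86.8 CPM and 65.9 to 90.2 CPM) covered each other. The means were 108 ± 22.0 CPM (SD, n = 5) in control and 64.2 ± 13.9 CPM (SD, n = 5) in WD camels, an LFC of −0.75 (SE 0.195), or 1.69-fold lower. Without CON13 and WD6 the LFC was −0.84.

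BTBD11 (ENSCDRG00005016449), now also named ABTB3, encodes a protein with ankyrin repeats and a BTB domain found at synapses of inhibitory neurones. It was at 39.7, 53.5, 74.9, 62.4 and 47.8 CPM in CON2, CON3, CON4, CON5 and CON13. In WD6, WD7, WD8, WD9 and WD15 it was at 32.3, 37.2, 29.2, 40.1 and 27.7 CPM. Its groups overlapped through CON2 and WD9 alone, whose counting intervals (34.2 to 45.8 CPM and 36.5 to 43.9 CPM) nearly coincided, so the overlap did not depend on the shallow libraries and remained without CON13 and WD6. The LFC was −0.75 (SE 0.195), from 55.7 ± 13.6 CPM (SD, n = 5) to 33.3 ± 5.27 CPM (SD, n = 5), or 1.68-fold lower.

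SFRP4 (ENSCDRG00005013281) encodes a secreted frizzled-related protein that binds Wnt ligands outside the cell and keeps them from their receptors. It had few counts: 28, 5, 39, 19 and 7 in the control and 0, 6, 9, 13 and 7 in the WD libraries, 133 in all. On the CPM scale these were 5.98, 1.18, 4.47, 2.78 and 8.37 in CON2, CON3, CON4, CON5 and CON13, and 0, 0.765, 1.38, 1.12 and 1.46 in WD6, WD7, WD8, WD9 and WD15. The 4 controls other than CON3 lay above every WD library, while CON3 lay inside the WD range. The highest value, CON13, came from 7 counts (95% interval 3.37 to 17.2 CPM) and made up 36.7% of the summed control level. The count of 0 in WD6 allows up to 1.42 CPM by a floor of 3 counts, and its 95% interval reaches 1.75 CPM. Means were 4.56 ± 2.79 CPM (SD, n = 5) and 0.946 ± 0.594 CPM (SD, n = 5). The LFC of −2.01 (SE 0.628) comes from the fit without the filter on low counts, and it was −1.78 without CON13, −1.75 without WD6 and −1.61 without both.

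**Figure D1:**
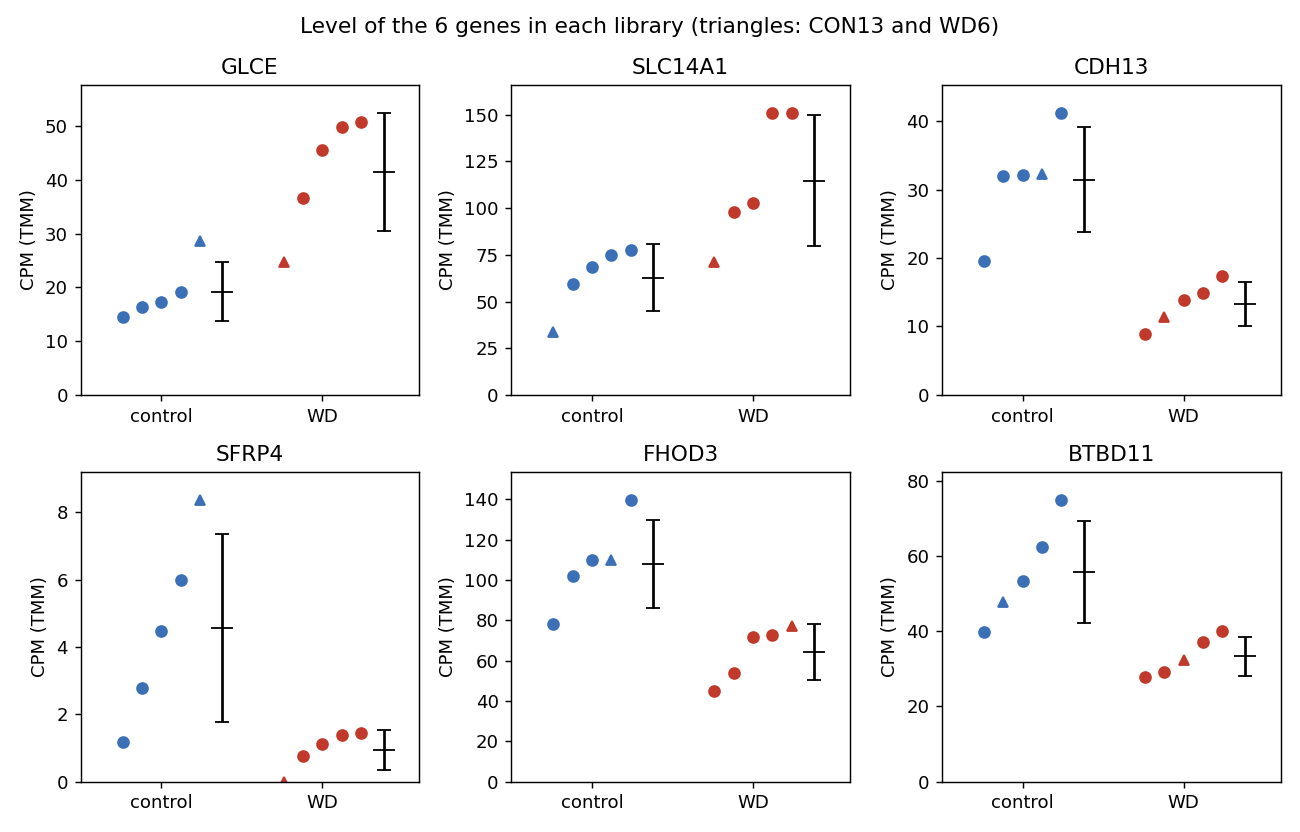
Level in CPM after TMM normalization (vertical axes, linear, from 0) of the 6 genes in each of the 5 control (blue) and 5 WD (red) libraries, sorted by level within a group, with the mean and SD in black. Triangles mark CON13 and WD6, which form the overlap of GLCE, while CDH13 and FHOD3 show no overlap and SFRP4 stays at or under 8.37 CPM throughout.

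The direction of all 6 differences was the same under every setting tried, which the choice of the genes on these libraries in part fixes. When 1 library was left out, the LFC lay between 1.10 and 1.34 for GLCE and between 0.70 and 0.96 for SLC14A1. It lay between −1.39 and −1.11 for CDH13, between −0.88 and −0.65 for FHOD3, and between −0.88 and −0.63 for BTBD11. SFRP4 had the widest range, −2.26 to −1.75. For CDH13, FHOD3 and BTBD11 the largest size was seen without CON2, the lowest control library of each, and the smallest without CON4, the highest, which leaving out WD15 equalled for CDH13 (−1.11) and FHOD3 (−0.65). How many of the genes edgeR called, in contrast, varied from 0 to 2 when 1 library was left out (0 without CON3, CON4 or CON5), while the share called over all genes varied from 0.273% to 0.686%. With depth group (the 5 shallowest libraries, once the 5 most counted IDs are set aside, against the 5 deepest) as a covariate, CDH13, GLCE, BTBD11 and FHOD3 were called, 4 of 5 tested, beside 1.55% of all genes. With library totals only none of the 5 was called, beside 0.0693% of all genes. Nothing is read from these counts, as the genes were chosen on this contrast.

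CON13 and WD15 had shorter fragments (under 300 bp) than the other 8 libraries, so WD and control were also compared within each of these sets. WD15 minus CON13 on the log2 CPM scale was 0.67 for GLCE, 1.61 for SLC14A1, −1.84 for CDH13, −1.29 for FHOD3, −0.79 for BTBD11 and −2.45 for SFRP4. In the longer fragment set the LFC was 1.28 for GLCE, 0.75 for SLC14A1, −1.11 for CDH13, −0.65 for FHOD3, −0.73 for BTBD11 and −1.92 for SFRP4. Signs were the same inside both sets of libraries, which the choice of the genes on these libraries in part fixes. The shorter set has 1 library per group, so its values carry no spread. CON13 held 24 counts of GLCE, 28 of SLC14A1 and 7 of SFRP4. WD15 also held 7 counts of SFRP4, so the SFRP4 difference in the shorter set comes from library size alone.

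Whether groups overlapped depended on the scaling. With DESeq2's size factors, as with TMM, CDH13 and FHOD3 did not overlap (2.59% of all genes did not). With totals that leave out the 5 most counted IDs BTBD11 joined them, which made 3 of 6 (2.79% of all genes). With plain library totals, which include the share of those IDs and move the median LFC of all genes from 0.017 to 0.161, all 6 genes overlapped, and 0.603% of all genes did not. On that scale the LFC was 1.44 for GLCE, 1.03 for SLC14A1, −1.03 for CDH13, −0.61 for FHOD3, −0.59 for BTBD11 and −1.74 for SFRP4.

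**Figure D2:**
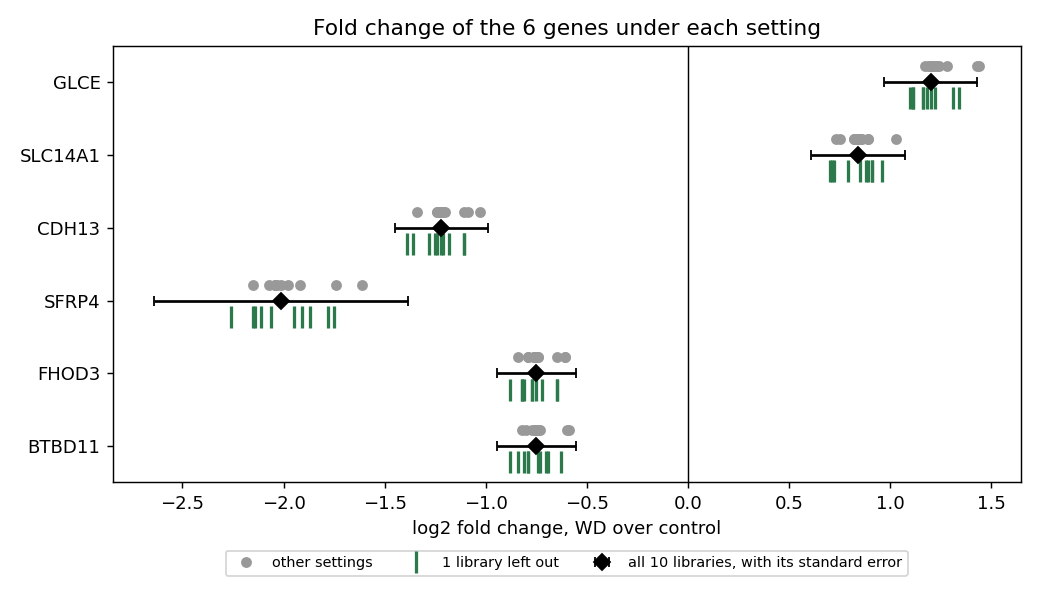
LFC of WD over control (horizontal axis, log2) for the 6 genes with all 10 libraries (diamond, bar of 1 SE), with 1 library left out (green ticks) and with other scalings, filters, covariates or pairs of libraries left out (grey points). No point of any gene crosses 0, and SFRP4 has the widest spread, from −2.26 to −1.61.

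The other 4 genes on the study's list, AEN, PCSK2, RET and SYT9, were all lower in WD camels, with LFCs of −1.36, −1.53, −1.31 and −1.26. None had overlapping groups (1.27% of all genes were lower without overlap), but all 4 overlapped with library totals, and they too were chosen on this contrast. Of the 10 genes listed as opposite, 8 thus had a lower mean CPM in WD camels, and GLCE and SLC14A1 were the 2 with a higher one.

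Animals of 1 group differed from each other in the 6 genes by different amounts. The coefficient of variation of CPM ran from 15.8% (BTBD11, WD) to 30.6% (SLC14A1, WD) in the 5 better counted genes, and was 61.2% and 62.8% for SFRP4. To ask whether genes varied together among animals, the group mean was taken from each log2 CPM and the 15 pairs of genes were compared over the 10 libraries by exact permutation within groups. No pair passed after Benjamini-Hochberg adjustment, with a lowest adjusted p of 0.156 for Pearson's r and 0.317 for Spearman's rho (exact permutation), and the median r was 0.053 with 8 of 15 positive.

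The closest pair was BTBD11 and FHOD3, the 2 genes with the same LFC. Its r was 0.802 (exact permutation p = 0.0104, adjusted p = 0.156) and its rho 0.721 (exact permutation p = 0.0284, adjusted p = 0.317). Within the control group r was 0.856 and within the WD group 0.797. Without CON2 and CON4, the lowest and the highest control library of both genes, r was 0.615. CDH13 and BTBD11 (r = 0.698, rho = 0.685) and GLCE and SFRP4 (r = 0.734, rho = 0.648) had unadjusted exact permutation p of 0.0359 and 0.0388 for r. The first fell to an r of 0.306 without CON2 and WD15 and the second to 0.364 without CON13 and WD6, so both rested on those libraries.

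Depth was compared with the genes in the same way, as the counts outside the 5 most counted IDs. SLC14A1 had the highest r, 0.855 (exact permutation p = 0.0103, adjusted over 6 genes 0.0617), with a rho of 0.539 (exact permutation p = 0.123, adjusted 0.29). Without CON13 and WD6 its r was 0.329, so this relation rested on the 2 shallow libraries. BTBD11 had an r of 0.553 (exact permutation p = 0.158, adjusted p = 0.475) and a rho of 0.733 (exact permutation p = 0.0331, adjusted p = 0.199), and r rose to 0.858 without these libraries. FHOD3 had an r of 0.075 and a rho of 0.297 (exact permutation p = 0.845 and 0.426, adjusted 0.845 and 0.639), and without these libraries an r of 0.8. CDH13 had an r of 0.279 and a rho of 0.527 (exact permutation p = 0.456 and 0.145, adjusted 0.775 and 0.29), and without them an r of 0.593. GLCE went opposite ways in the groups, with an r of −0.983 among controls and 0.889 among WD camels, 5 libraries each. None of the 6 relations passed the adjustment. With the depth group of the libraries as a covariate, the LFC was 1.23 for GLCE, 0.73 for SLC14A1, −1.34 for CDH13, −0.79 for FHOD3, −0.82 for BTBD11 and −1.98 for SFRP4.

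**Figure D3:**
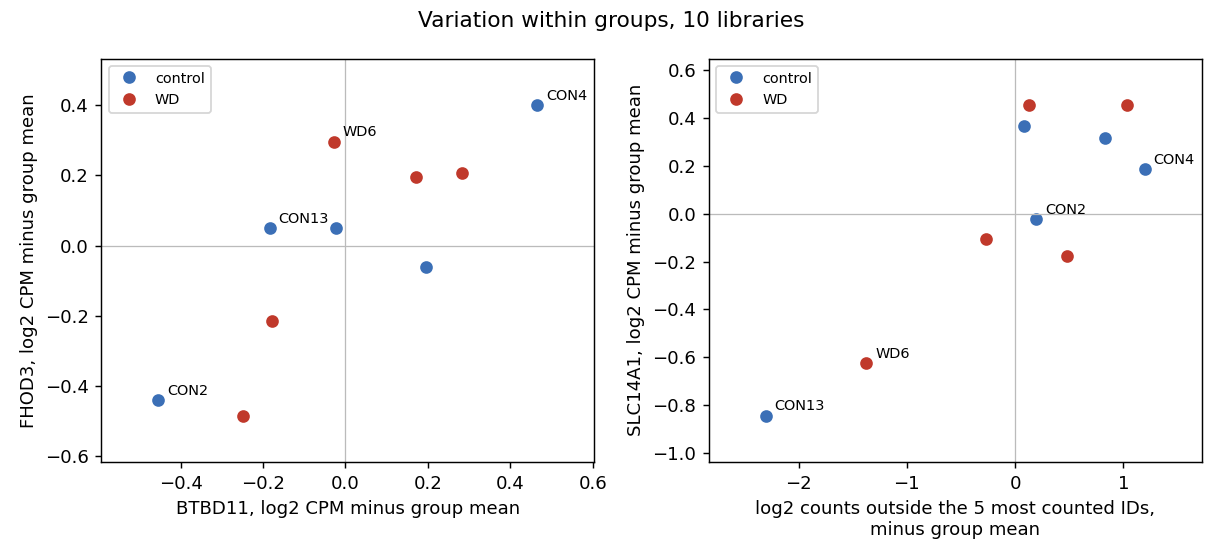
Log2 CPM minus the group mean for FHOD3 against BTBD11 (left) and for SLC14A1 against log2 depth minus its group mean (right), 5 control (blue) and 5 WD (red) libraries. On the left CON2 and CON4 are the extremes (r = 0.802), and on the right CON13 and WD6 lie apart at low depth and low SLC14A1 (r = 0.855).

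The genes whose variation within groups was most like each of the 6 were sought among 2264 genes with a symbol and a mean of at least 10 CPM. All such values share the same 10 libraries, depth and scaling, and are given as a description. For BTBD11 they were BEX5 (r = 0.972), AP1S2 (r = 0.961) and SIM1 (r = 0.95), a transcription factor of magnocellular neurones whose own LFC was −0.04 (SE 0.222). For FHOD3 they were the calcium channel subunit CACNB1 (r = 0.966), the arginine methyltransferase PRMT1 (r = 0.962) and the glycolytic enzyme PFKL (r = 0.952). For CDH13 they were ZZZ3 (r = 0.908), the GABA transporter SLC6A11 (r = 0.902, with a rho of 0.612) and RPS6KC1 (r = 0.882). PRMT2, C20orf27 and PTPRU stood nearest to GLCE (r = 0.926, 0.92 and 0.903). ZNF875, INPP4B and SLC6A20 stood nearest to SLC14A1 (r = 0.962, 0.958 and 0.948). KDM4C, ZNF567 and HDAC1 stood nearest to SFRP4 (r = 0.961, 0.958 and 0.944), whose counts are too sparse to read anything from this. None of these 18 genes was called in the comparison of WD and control, with adjusted p in edgeR's quasi-likelihood test of 0.267 or more.

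Genes that work beside the 6 were taken from lists of 103 genes in 7 groups, and 74 of them had enough counts to be tested. The lists were drawn from the study's classes of transcription factors, peptides, catalytic receptors and enzymes. Other receptors, channels and transporters were therefore not surveyed. After Benjamini-Hochberg adjustment edgeR's quasi-likelihood test called none of the 74, against 0.499% of all genes. For so few genes 0 is near that share, and nothing is read from it. The smallest adjusted p was 0.292, 8 genes had an unadjusted p under 0.05 (1344 of all 14432 genes did), and DESeq2 called none of them either.

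Around SFRP4, 4 of 5 Wnt antagonists were tested, with a median LFC of −0.19 beside 0.017 for all genes. Its relatives SFRP1 (LFC −0.53, SE 0.344, adjusted p = 0.687 in edgeR's test) and WIF1 (−0.36, SE 0.329, adjusted p = 0.802) had the smallest p of the group. SFRP1 ranged from 4.27 to 10.4 CPM in control and from 3.28 to 7.12 CPM in WD camels, and SFRP2, at 15.9 ± 5.44 and 16.9 ± 4.68 CPM (SD, n = 5 each), had an LFC of 0.17.

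Of 19 Wnt ligands 8 were tested, with 6 negative values and a median LFC of −0.52, and WNT4 (LFC −0.86, SE 0.333) and WNT9A (LFC −0.74, SE 0.428) had the smallest p. Their adjusted p in edgeR's test was 0.413 and 0.64. Of 12 Wnt receptors and effectors 11 were tested (median LFC −0.07), and this list holds no Frizzled or LRP receptor. The smallest p belonged to LEF1, a transcription factor at the end of the pathway (LFC 0.67, SE 0.245, adjusted p = 0.367 in edgeR's test), and the receptor ROR1 (LFC −0.83, SE 0.476, adjusted p = 0.633). The 4 R-spondins, secreted enhancers of Wnt signals, were too low to test, with a summed level of 2.29 to 15.5 CPM in control and 1.88 to 5.22 CPM in WD camels.

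Around GLCE, 10 of 18 growth factors, receptors and other proteins that bind or cut heparan sulfate were tested, with a median LFC of −0.13. FGF1, a growth factor that needs heparan sulfate to act on its receptor, was at 41.3 to 46.6 CPM in control and 31.2 to 37.8 CPM in WD camels. Its groups did not overlap, its LFC was −0.39 (SE 0.155) and its adjusted p in edgeR's test was 0.442. PTN, pleiotrophin, followed (LFC −0.63, SE 0.309, adjusted p = 0.564). The summed level of the 18 genes was 298 to 380 CPM in control and 286 to 360 CPM in WD camels.

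Around FHOD3, 27 of 30 kinases, GTPases and other regulators of actin were tested, with a median LFC of −0.04. RAC3, a small GTPase of neurones, had the smallest p (LFC −0.60, SE 0.199, adjusted p = 0.292 in edgeR's test), followed by the kinase PAK5 (LFC −0.87, SE 0.296, adjusted p = 0.306). Both had overlapping groups, RAC3 with 20.9 to 34.7 CPM in control and 14.6 to 22.3 CPM in WD camels. ROCK1, which acts on formins, had an LFC of 0.55 (SE 0.242) and an adjusted p of 0.492 in edgeR's test, and SRF, the transcription factor that reads actin assembly, of −0.32 (SE 0.224, adjusted p = 0.714). These 2 were chosen after their values were seen.

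Around SLC14A1, 14 of 15 genes of urea, osmolytes and cell volume were tested, of which 11 had positive values, with a median LFC of 0.11. SGK2 (LFC −0.85, SE 0.423) and WNK2 (LFC −0.47, SE 0.197), both kinases that act on ion transport, had the smallest p, with adjusted p in edgeR's test of 0.572 and 0.472. ARG2, which releases urea from arginine, was named after its values were seen, with 7.9 to 16.9 CPM in control and 5.69 to 28.5 CPM in WD camels (LFC 0.54, SE 0.319, adjusted p = 0.648 in edgeR's test). So was NFAT5, the transcription factor of the response to hypertonicity (LFC 0.25, SE 0.228, adjusted p = 0.801).

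**Figure D4:**
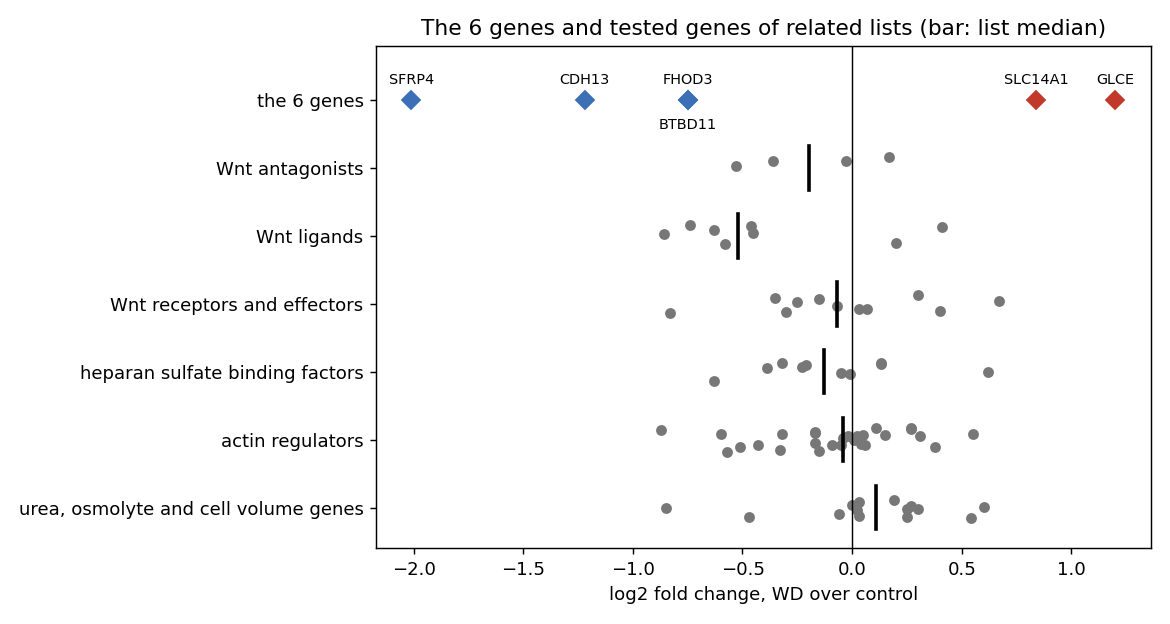
LFC of WD over control (horizontal axis, log2) of the 6 genes (top row, red higher and blue lower in WD) and of the 74 tested genes in 6 of the 7 lists (grey, black bar for the list median). The grey points lie between −0.87 and 0.67, inside the range of the 6 chosen genes, and no R-spondin could be tested.

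Markers of the cell types that the punch can hold were summed per library. The sums overlapped between groups for endothelial cells (248 to 436 CPM in control, 258 to 529 CPM in WD camels), astrocytes (75.3 to 98.4 and 73.8 to 86.5 CPM), oligodendrocytes (131 to 346 and 137 to 268 CPM) and GABA neurones (23.5 to 45.3 and 15.2 to 38.6 CPM). They also overlapped for microglia (228 to 369 and 272 to 801 CPM), though through CON2 alone, as the other 4 controls lay at 228 to 249 CPM. Of the 11 microglia markers 9 had positive values (median LFC 0.69) and none was called, with 6 at an unadjusted p under 0.05 in edgeR's test (5 higher and FLT3 lower, LFC −0.57, beside 1344 of all 14432 genes) and 0 called by DESeq2. No marker of any list was at 0 in all libraries.

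Of 7 tested endothelial markers 6 had positive values (median LFC 0.19). The vascular growth factor receptors FLT1 (LFC 0.62, SE 0.224) and KDR (LFC 0.64, SE 0.247) were the 2 with an unadjusted p under 0.05, and their adjusted p in edgeR's test was 0.362 and 0.402. FLT1 ranged from 31.2 to 66.2 CPM in control and from 58.9 to 101 CPM in WD camels. The part of endothelial cells in the level of SLC14A1 was not tested. PTPRC (LFC 0.90, SE 0.274) and IRF8 (LFC 0.98, SE 0.303) had the smallest p among microglia markers, with an adjusted p of 0.229 each in edgeR's test. In the glial and GABA lists the smallest p belonged to RORB (LFC −0.47) and LHX2 (−0.22) for astrocytes, OLIG1 (−0.31) and MYRF (−0.26) for oligodendrocytes, and LHX6 (−0.72) and GAD1 (−0.18) for GABA neurones. None of these 6 was called, with adjusted p of 0.684 or more in edgeR's test, and DESeq2 called none of them.

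Fibroblast and mural markers summed to 139 to 179 CPM in control and 94.0 to 164 CPM in WD camels. Of 8 tested values 6 were negative, and 1 gene was called, beside 0.499% of all genes. This was COL1A1, a collagen chain (LFC −1.04, SE 0.207, adjusted p = 0.0239 in edgeR's test). General neurone markers summed to 267 to 316 and 163 to 299 CPM, with 3 of 4 negative and none called by edgeR's test, in which CAMK2A had an adjusted p of 0.0501 and CAMK2B (LFC −0.51, SE 0.187) one of 0.367. DESeq2 called CAMK2A, and it called COL3A1 beside COL1A1 among the fibroblast and mural markers, where it called 1.27% of all genes. The sum of the 4 magnocellular markers was higher in every WD library (1170 to 2090 against 350 to 622 CPM), through the neuropeptide precursor PDYN (LFC 1.93) and the prohormone convertase PCSK1 (LFC 2.02). The transcription factors OTP (LFC −0.58, SE 0.239) and SIM1 (LFC −0.04, SE 0.222) were not called, with adjusted p in edgeR's test of 0.454 and 0.973. COL1A1, COL3A1, CAMK2A, PDYN and PCSK1 are genes that the study names as changed in the sequencing of these same libraries, so their calls here are not independent of it. The part of any cell type in the levels of the 6 genes was not tested.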

How the data were processed

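Paired reads came from rostral SON punches of 10 camels, 5 of each group. The authors trimmed reads, mapped them with STAR (assembly Camdro2) and counted them per gene with featureCounts, and the deposited counts are whole numbers without normalization, 1 column per animal. A deposited table of normalized values was not used here. The strand setting and the treatment of reads shared between genes are not given in the sources used here, so overlapping genes are uncertain. Symbols came from the study's supplementary tables, which here pair 4316 of the 22444 IDs.

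The 6 genes and the gene lists were chosen with earlier results of these data known. The groups were compared in edgeR 4.0.16 (R 4.3.3; quasi-likelihood F test, robust fit, TMM, filterByExpr by group, Benjamini-Hochberg adjustment over the 14432 genes tested, threshold 0.05), which gave the background, the fold changes with their standard errors and the calls of the list genes. The common biological coefficient of variation was 0.285. DESeq2 1.42.0 (Wald test), which the study used, was an alternative. Log2 CPM for variation within groups used a prior count of 0.5, and correlations were tested over the 14400 permutations of libraries within groups, two-sided. Counting intervals are exact Poisson intervals at 95%, and both they and the floor of 3 counts cover counting error only. Libraries of 1 group differed by more than sampling noise (smallest chi-square per degree of freedom 6.97). Python 3.11.15 with scipy 1.17.1, pandas 2.3.3 and matplotlib 3.10.9 was used for tables and plots. The fitting code was tested on simulated data.

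Named genes are the 6, the other 4 genes of the study's list, for each of the 6 the 3 genes most alike within groups, and of each list the genes called or else the 2 with the smallest p. SFRP2, ROCK1, SRF, ARG2, NFAT5, COL3A1, FLT3, OTP and SIM1 were added after their values were seen. Coordinates and sequences are not given, as no Camdro2 annotation was used. Alternatives were other scalings and filters, RNA integrity, fragment size or depth as a covariate, a fit that is not robust, and libraries left out.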

Additional observations from a re-analysis of the deposited data

Results flagged for a closer look

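In 90 groups of 5 libraries (the 6 genes, the 4 other genes of the study's list, the 27 list genes picked by the naming rule and the 8 marker sums, in control and WD camels), 7 single values stood apart by Dixon's criterion, in which the gap to the nearest library is divided by the whole range (critical value 0.71). Chance alone gives about 1 in 20. For SFRP4 in WD camels the ratio was 0.794 for WD6, which was at −3.54 log2 CPM while the others lay between −0.23 and 0.63. That value stands for 0 counts and depends on the prior count. For WNT9A in WD camels it was 0.745 for WD15, at 0.63 log2 CPM beside 1.79 to 2.19 in the others. Among marker genes in WD camels it was 0.91 for RORB in WD6, at −3.54 log2 CPM and 0 counts beside 3.42 to 4.10 in the others. It was 0.722 for LHX6 in WD9, at 0.05 log2 CPM beside 1.25 to 1.71. In controls it was 0.874 for COL1A1 in CON3, at 4.94 log2 CPM beside 5.56 to 5.65. It was 0.863 for CAMK2A in CON13, at 6.09 log2 CPM beside 6.43 to 6.49. For the summed microglia markers in controls it was 0.822 for CON2, at 8.53 on the log2 scale of summed CPM beside 7.84 to 7.96 in the others.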

How the results depend on the processing

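The LFC of all 6 genes stayed within the spread between replicates under every alternative. For alternatives other than a single library left out it ranged from 1.17 to 1.44 for GLCE, 0.73 to 1.03 for SLC14A1, −1.34 to −1.03 for CDH13, −0.84 to −0.61 for FHOD3, −0.82 to −0.59 for BTBD11 and −2.15 to −1.61 for SFRP4. No value without a filter or with at least 10 counts in every library is given for SFRP4, since its fit has no filter. None of the listed relatives was called under any alternative. The number of genes called over the whole table, 72, was 209 with DESeq2's Wald test, 224 with depth group as a covariate and 10 with library totals only. It ranged from 40 (without CON3) to 102 (without WD6) with 1 library left out, and was 33 without CON13 and WD15, which leaves 4 against 4 libraries. For these counts the cause was not tested. Leaving out CON13 with WD6 or with WD15 was chosen after seeing the data. Pairs of genes past the threshold were 0, and with 1 library left out 0 to 1 (1 without WD8). No paired analysis was possible because the control and WD libraries came from different camels. Depth limits SFRP4 most, with 133 counts in all, and the values of CON13 in every gene.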
